A study of Mus musculus with 9 samples.

Results

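The miR-143 and miR-145a cluster gives 4 mature microRNAs (miRNAs, short RNAs that guide the repression of messenger RNAs), mmu-miR-143-3p, mmu-miR-143-5p, mmu-miR-145a-5p and mmu-miR-145a-3p (mmu marks the mouse and is left off below). They were taken by name from a table of 946 mature miRNA rows, and all 4 were found and passed the filter on low counts that left 360 rows to test. Small RNA from whole liver of wild-type C57 BL6 mice aged 8 weeks was sequenced in 9 libraries, 3 per group. The dmPGE2+APAP group was given 300 µg/kg dmPGE2, a stabilised prostaglandin E2 analog, 1 h ahead of 500 mg/kg acetaminophen (APAP). The APAP group was given that acetaminophen dose alone, and the Control group was given saline. Both agents were injected into the peritoneum, and tissue was taken 6 h after APAP. No group had dmPGE2 without APAP, and the labels describe no vehicle for dmPGE2. Nothing in the labels says that each library is a different animal, so the p-values measure the spread between libraries, which may be technical.

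The hairpins of both miRNAs are cut from 1 long non-coding host transcript. That transcript is made mainly in vascular smooth muscle, pericytes and other mesenchymal cells, where serum response factor and its coactivator myocardin drive it. In those cells miR-145 represses Klf4 and Klf5, transcription factors that oppose the contractile state, and miR-143 represses Elk1, a growth-associated partner of serum response factor. In liver the cluster is known from vessel walls and from stellate cells, the pericytes that turn into matrix-producing myofibroblasts after injury. Each hairpin gives a strand from its 5′ arm (5p) and a strand from its 3′ arm (3p), of which usually 1 is kept and the other, the passenger, is mostly degraded.

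On GRCm38.p6, the build also called mm10, RefSeq places Mir145a on chromosome 18 at 61647825 to 61647894 and Mir143 at 61649196 to 61649258, with 1301 bases between them. Both lie inside the host gene Carmn, also called Mir143hg, a long non-coding RNA gene that spans 61645878 to 61665538 on the same chromosome. Whether the hairpins are exonic or intronic in Carmn was not analysed here. A separate mouse gene of similar name, Mir145b, had only 5 reads over the 9 libraries. Among rows with at least 100 reads in total, none of the 13 pairs that count nearly the same reads includes a member (0 of 13). With its 5 reads, miR-145b was not part of that check.

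Libraries held between 1038799 and 10483460 reads. The shallowest was dmPGE2+APAP replicate 2, and APAP replicate 3 was next with 3523998 reads, while every Control library had at least 7590735. Levels below are in CPM, a count divided by its library's size and brought to 1 fixed total, with TMM scaling, which sets libraries on 1 scale through the miRNAs they share. A mature miRNA is covered by single reads, so CPM needs no length term, but adapter ligation favours some sequences, and levels of different miRNAs are compared only as read numbers. In whole tissue, fewer cells of a type and less of the miRNA per cell cannot be told apart.

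The cluster was dominated by 1 strand. Over all libraries miR-143-3p took 99.2% of the cluster's reads, against 0.521% for miR-145a-5p, 0.242% for miR-145a-3p and 0.0337% for miR-143-5p. With a mean of 32299 CPM, miR-143-3p was the 6th most abundant of the 946 rows. By the same mean, miR-145a-5p (155 CPM) ranked 79, miR-145a-3p (80.9 CPM) ranked 95 and miR-143-5p (11.6 CPM) ranked 198. The order of the 4 strands was the same in each of the 9 libraries, and miR-145a-5p and miR-145a-3p were the only neighbours whose ranges overlapped over all libraries.

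The abundant strand miR-143-3p had 25251, 40897 and 34769 CPM in dmPGE2+APAP livers, 23969, 27342 and 36530 CPM in APAP livers, and 41031, 25458 and 35446 CPM in Control livers, each in replicate order. High and low libraries occurred in every group, and the ranges of all 3 groups overlapped. Group means were 33639 ± 7884 CPM in dmPGE2+APAP, 29280 ± 6501 CPM in APAP and 33979 ± 7890 CPM in Control (SD, n = 3 each). Within a group the highest library was 1.52 to 1.62 times the lowest, which is more than the means differ by. As a share of each library's reads it made up 3.59% ± 1.03 in dmPGE2+APAP, 3.17% ± 1.01 in APAP and 3.09% ± 1.01 in Control.

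Its passenger miR-143-5p was rare, with 8.91, 16.2 and 10.02 CPM in dmPGE2+APAP livers, 9.50, 9.86 and 17.2 CPM in APAP livers, and 14.7, 10.3 and 7.74 CPM in Control livers. The highest values were in APAP replicate 3 and dmPGE2+APAP replicate 2, which are also the shallowest libraries, and the groups overlapped. Few reads stand behind these values: dmPGE2+APAP replicate 2 held 19 of them, with an exact 95% Poisson interval of 11.4 to 29.7 reads that covers counting error only. PCR copies are not independent molecules, so the true error is wider.

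The main miR-145a strand, miR-145a-5p, had 149, 177 and 103 CPM in dmPGE2+APAP livers, 143, 142 and 98.1 CPM in APAP livers, and 193, 127 and 260 CPM in Control livers. Control replicates 3 and 1 were the highest of the 9 libraries, yet Control replicate 2 lay below the first 2 libraries of both other groups. Group means were 143 ± 37.2 CPM in dmPGE2+APAP, 128 ± 25.7 CPM in APAP and 193 ± 66.8 CPM in Control (SD, n = 3 each).

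Its partner miR-145a-3p had 71.7, 105 and 88.9 CPM in dmPGE2+APAP livers, 75.1, 77.5 and 90.2 CPM in APAP livers, and 76.3, 85.3 and 58.4 CPM in Control livers. This was the steadiest of the 4, with group means of 88.5 ± 16.6, 80.9 ± 8.07 and 73.3 ± 13.7 CPM in dmPGE2+APAP, APAP and Control (SD, n = 3 each). The lowest library was Control replicate 3, the same one that was highest for miR-145a-5p. Across the 206 tested miRNAs that averaged at least 10 CPM, the median SD within groups was 0.30 on the log2 scale. The members' values were 0.24 for miR-145a-3p, 0.34 for miR-143-3p, 0.42 for miR-145a-5p and 0.45 for miR-143-5p, so 29.6%, 61.7%, 75.2% and 83.5% of those miRNAs, in this order, varied less.

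**Figure D1:**
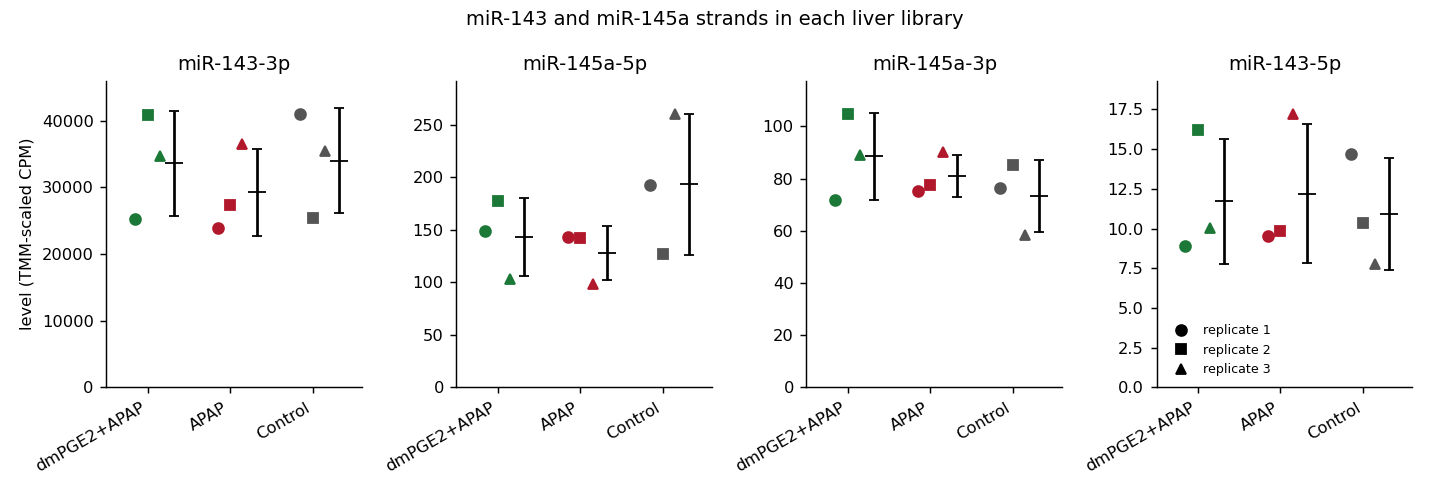
Level of each strand in TMM-scaled CPM (linear axes from 0) in every library, by group and with 1 marker shape per replicate number. Black bars give the group mean ± SD (n = 3). All 4 strands overlap between groups, and Control replicate 3 is the highest library for miR-145a-5p at 260 CPM and the lowest for miR-145a-3p at 58.4 CPM.

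The first comparison asked how acetaminophen alone changed these miRNAs. None of the 4 passed the threshold between APAP and Control. The test was the quasi-likelihood test of edgeR, with p-values adjusted by Benjamini-Hochberg over 360 miRNAs and called under 0.05, and DESeq2 and limma-voom also called 0 of 4. Over all tested miRNAs edgeR called 0.833% in this comparison, so 0 of 4 is near that background. At an unadjusted p under 0.05 it was 1 of 4, against 9.72% of all miRNAs. None of the 4 had groups that did not overlap, against 16.7% of all tested miRNAs.

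The lowest p among them belonged to miR-145a-5p. Its log2 change in APAP against Control was -0.60 (SE 0.27), a fold of 0.662, and the 95% interval of the log2 change ran from -1.18 to -0.01. The unadjusted p in edgeR was 0.0452 and the adjusted p was 0.478. Without Control replicate 3 the log2 change was -0.30 and the adjusted p was 0.786. With all 9 libraries kept, the deposited TPM tested with limma also gave -0.30 (adjusted p 0.785), and library totals in edgeR gave -0.41. Leaving out Control replicate 2, the lowest Control library, gave -0.82 and an adjusted p of 0.329.

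For miR-143-3p the log2 change was -0.21 (SE 0.24), which became 0.03 when libraries were scaled to their totals, a setting that raised the median of all miRNAs by 0.25. The fitted fold was 0.862 (95% interval 0.608 to 1.22), with an adjusted p of 0.791 in edgeR. Both passenger-side strands had small positive values, 0.14 (SE 0.22, adjusted p 0.859) for miR-145a-3p and 0.15 (SE 0.34, adjusted p 0.920) for miR-143-5p. The value of miR-145a-3p ran from 0.02 without Control replicate 3 to 0.43 with library totals. The value of miR-143-5p turned to -0.15 without APAP replicate 3 and to -0.03 without Control replicate 3. The median of the 4 log2 changes was -0.04, beside -0.05 for all 360 miRNAs.

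Adding dmPGE2 before APAP was compared with APAP alone. Again 0 of 4 members passed edgeR's threshold, with 0.278% of all miRNAs called, and DESeq2 and limma-voom called 0 too. At an unadjusted p under 0.05 it was also 0 of 4, against 6.39% of all, and 0 of 4 had groups that did not overlap, against 13.9% of all. The log2 changes in dmPGE2+APAP against APAP were 0.20 (SE 0.24) for miR-143-3p, 0.15 (SE 0.28) for miR-145a-5p, 0.12 (SE 0.22) for miR-145a-3p and -0.13 (SE 0.36) for miR-143-5p. In edgeR their adjusted p ranged from 0.913 to 0.963. Leaving out 1 library moved miR-143-3p between 0.07 (without dmPGE2+APAP replicate 2) and 0.42 (without APAP replicate 3). It moved miR-145a-5p between 0.03 (without dmPGE2+APAP replicate 2, and also without APAP replicate 3) and 0.36 (without dmPGE2+APAP replicate 3), and miR-145a-3p between 0.03 (without dmPGE2+APAP replicate 2) and 0.26 (without dmPGE2+APAP replicate 1). For miR-143-3p the 95% interval of the fold ran from 0.810 to 1.63, and for miR-145a-5p from 0.741 to 1.67. The sign for miR-143-5p turned without APAP replicate 3 (0.23), without dmPGE2+APAP replicate 1 (0.05) and after thinning to equal depth (0.21). The members' median was 0.14, beside 0.00 for all miRNAs.

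Livers given both agents were also set against Control, and each of the 3 comparisons shares a group with the others. Here 0 of 4 members passed edgeR's threshold and 0 of 4 had groups that did not overlap, against 0.278% and 14.7% of all miRNAs. At an unadjusted p under 0.05 it was 0 of 4, against 10.6% of all, and DESeq2 and limma-voom called 0. miR-145a-5p had a log2 value of -0.44 (SE 0.28, adjusted p 0.522), with a 95% interval of the fold of 0.491 to 1.11. It was -0.14 without Control replicate 3 and -0.23 without dmPGE2+APAP replicate 3. miR-145a-3p had 0.26 (SE 0.22, adjusted p 0.675). It was 0.15 without Control replicate 3, 0.44 without Control replicate 2 and 0.53 with library totals, where its adjusted p was lowest at 0.356 in edgeR.

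The values nearest 0 were those of the miR-143 strands, -0.01 (SE 0.24) for miR-143-3p and 0.03 (SE 0.36) for miR-143-5p, both with an edgeR adjusted p of 0.994. For miR-143-3p the 95% interval of the fold was 0.698 to 1.40. Its sign depended on the setting, with 0.21 under library totals, which raised the median of all miRNAs by 0.22. The median of the 4 members was 0.01, beside -0.03 for all.

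**Figure D2:**
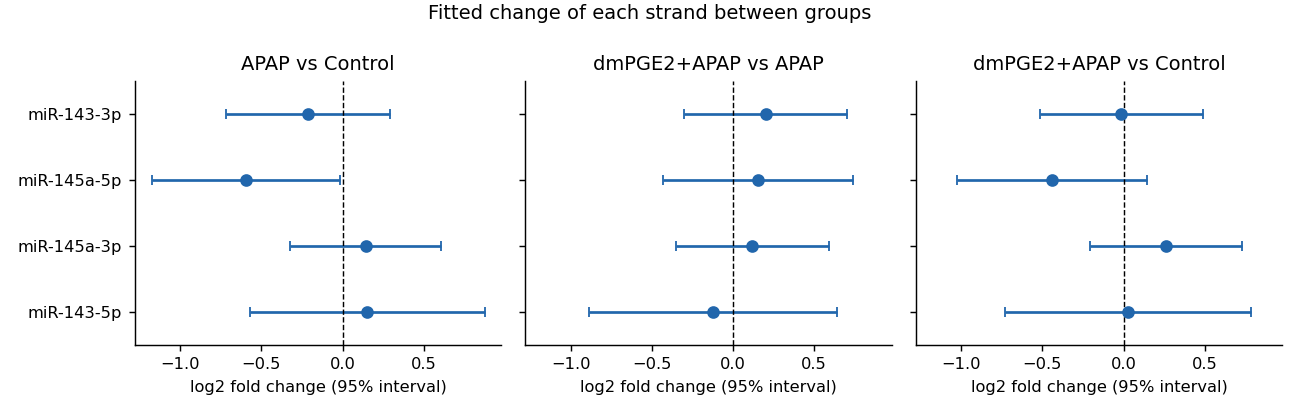
Log2 fold change of each strand in the 3 comparisons from edgeR's fit over 9 libraries, with the group named first over the other. Points are fitted changes, and bars are 95% intervals before adjustment for 360 miRNAs. In APAP against Control the interval of miR-145a-5p runs from -1.18 to -0.01 and is the only one that leaves out 0.

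Ratios of reads within a library need no scaling between libraries, and they show how the strands of the cluster stood to each other. miR-143-3p had 170, 231 and 336 reads per read of miR-145a-5p in dmPGE2+APAP libraries, 168, 192 and 373 in APAP libraries, and 213, 201 and 136 in Control libraries. The highest ratios were those of the third replicate in both APAP-treated groups, and the lowest of all was that of Control replicate 3. On the log2 scale the difference was 0.35 for APAP minus Control, 0.04 for dmPGE2+APAP minus APAP and 0.39 for dmPGE2+APAP minus Control. Exact two-sided permutation tests gave p = 0.6, 0.9 and 0.4, where groups of 3 cannot give less than 0.1. Without APAP replicate 3 the first of these differences was -0.0039.

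The strands of the miR-145a hairpin were nearer to each other in abundance than those of most hairpins. miR-145a-5p had 2.08, 1.69 and 1.16 reads per read of miR-145a-3p in dmPGE2+APAP libraries, 1.90, 1.84 and 1.09 in APAP libraries, and 2.53, 1.48 and 4.45 in Control libraries. In every library the 5p strand was the more abundant, most of all in Control replicate 3. Mean log2 ratios were 0.68 ± 0.42 in dmPGE2+APAP, 0.64 ± 0.45 in APAP and 1.35 ± 0.79 in Control (SD, n = 3 each). The difference was -0.71 for APAP minus Control and -0.68 for dmPGE2+APAP minus Control, each with an exact two-sided permutation p of 0.3, and 0.03 for dmPGE2+APAP minus APAP (p = 0.9). Without Control replicate 3 the first was -0.31 and the second -0.28. Among 98 hairpins with both strands tested, miR-145a ranked 77 by the size of its mean log2 strand ratio (0.89, against a median size of 3.46) and 20 by the size of its APAP minus Control difference.

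The miR-143 hairpin was at the other end. miR-143-3p had 2835, 2526 and 3471 reads per read of miR-143-5p in dmPGE2+APAP libraries, 2523, 2773 and 2122 in APAP libraries, and 2797, 2465 and 4581 in Control libraries. Its strand ratio ranked 6 by size among the 98 hairpins, at a mean log2 of 11.5. Log2 differences were -0.37 for APAP minus Control, 0.24 for dmPGE2+APAP minus APAP and -0.13 for dmPGE2+APAP minus Control, with exact two-sided permutation p of 0.4, 0.3 and 0.9. After adjustment over the 9 ratio tests, p lay between 0.72 and 0.9. The direction of the second turned after thinning to equal depth (-0.06), where the passenger strand holds few reads, and that of the third turned without Control replicate 3 (0.14).

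**Figure D3:**
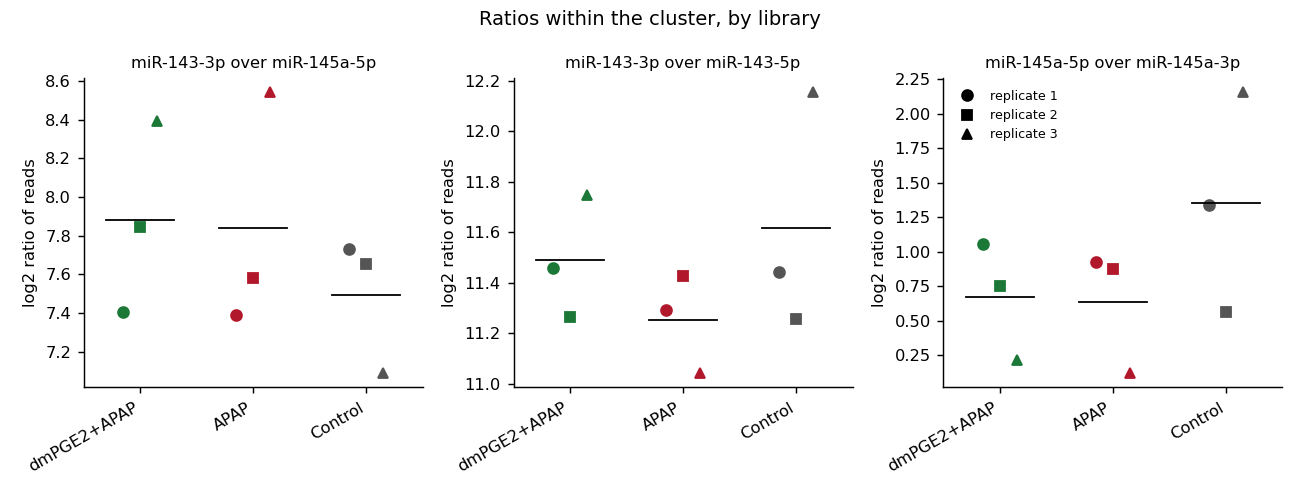
Log2 ratio of reads between cluster strands in each library, by group, with the group mean as a black line and 1 marker shape per replicate number. The axes do not start at 0. The third replicates of dmPGE2+APAP and APAP lie highest for miR-143-3p over miR-145a-5p (336 and 373 as linear ratios) and lowest for miR-145a-5p over miR-145a-3p, where Control replicate 3 is highest (4.45).

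Although cut from 1 host transcript, the main strands of both hairpins did not follow each other closely over the libraries. Between miR-143-3p and miR-145a-5p Pearson's r of log2 CPM was 0.26 over 9 libraries (exact permutation p = 0.506) and Spearman's rho was 0.27 (p = 0.493). The r was 0.31 without the 2 libraries farthest from the median and 0.15 for deviations from the group means. With libraries scaled to their totals in place of TMM, r was 0.44. In dmPGE2+APAP replicate 3 and APAP replicate 3, miR-143-3p lay above its own mean while miR-145a-5p lay at its lowest.

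The strongest relation among the 6 pairs was between the less abundant strands, miR-143-5p and miR-145a-3p. Pearson's r was 0.73 (exact permutation p = 0.0196, adjusted over 6 pairs 0.117) and Spearman's rho was 0.87 (exact permutation p = 0.00451, adjusted 0.0271). Within groups r was 0.79, and with library totals it was 0.84. APAP replicate 3 and dmPGE2+APAP replicate 2 lay farthest from the median of miR-143-5p, and without them r was 0.50 (exact permutation p = 0.230, n = 7). Leaving out extreme values can by itself lower r, and these are also the shallowest libraries. The part of depth in this relation was not tested.

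For the other pairs, r was 0.63 for the strands of the miR-143 hairpin (adjusted p 0.196 by exact permutation) and -0.58 for those of the miR-145a hairpin (adjusted p 0.196 by exact permutation). The negative value became -0.03 without Control replicate 3 and APAP replicate 3, the libraries farthest from the median of miR-145a-5p. With library totals the r of the miR-143 strands was 0.77 and that of the miR-145a strands was -0.15. miR-143-3p with miR-145a-3p gave 0.28, which was 0.63 with library totals. miR-143-5p with miR-145a-5p gave -0.27, which turned to 0.02 with library totals.

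**Figure D4:**
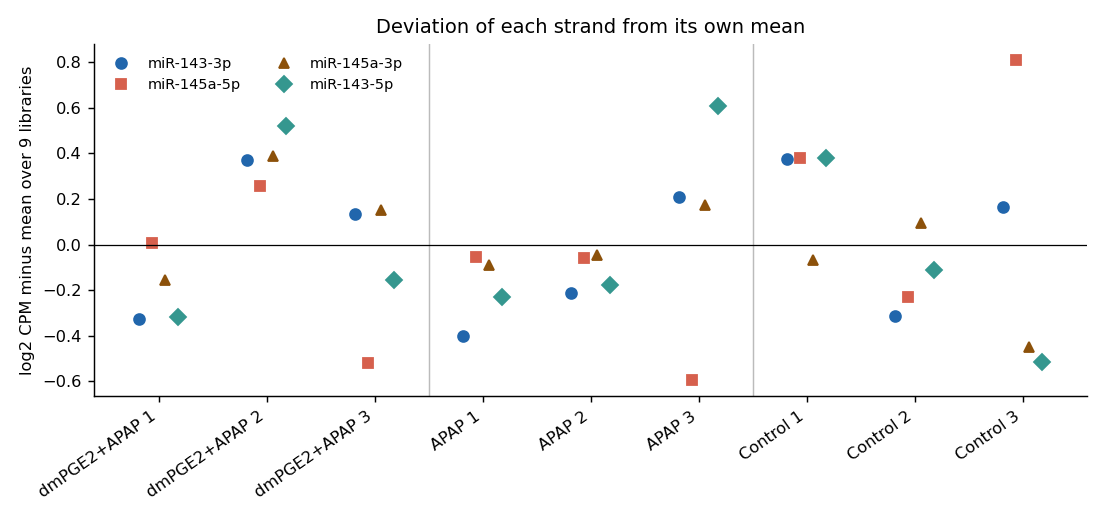
Log2 CPM of each strand minus its own mean over the 9 libraries, one column of markers per library, grouped as dmPGE2+APAP, APAP and Control. Control replicate 3 spans the widest range, from -0.51 for miR-143-5p to 0.81 for miR-145a-5p, while Control replicate 1 has 3 strands near 0.38.

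Other miRNAs were ranked by how closely they followed the main strands, as Pearson's r of log2 CPM over the 9 libraries among 202 miRNAs of at least 10 CPM outside the cluster. The closest to miR-143-3p were miR-30a-3p (r = 0.89), miR-322-3p (0.85), miR-125b-2-3p (0.85), miR-200a-5p (0.84) and miR-187-3p (0.82). Over all 202 the r ran from -0.89 to 0.89 with a median of -0.03, so equally strong opposite patterns were present. The closest to miR-145a-5p were miR-182-5p (0.87), miR-425-5p (0.86), miR-151-5p (0.85), miR-320-3p (0.82) and miR-199a-5p (0.80), with a range of -0.82 to 0.87 over the 202. No miRNA stood in both sets, and all these values share the same 9 libraries and their scaling.

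RefSeq sequences on GRCm38.p6 matched 7 of these 10 by name and are shown so that their seeds, the bases that pair with targets, can be compared. Bases 2 to 8, the seed, are in capitals, and the first 4 followed miR-143-3p while the last 3 followed miR-145a-5p.
miR-30a-3p: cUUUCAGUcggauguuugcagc
miR-322-3p: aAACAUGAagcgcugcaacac
miR-125b-2-3p: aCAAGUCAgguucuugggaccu
miR-200a-5p: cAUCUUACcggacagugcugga
miR-182-5p: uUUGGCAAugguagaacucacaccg
miR-425-5p: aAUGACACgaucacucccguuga
miR-199a-5p: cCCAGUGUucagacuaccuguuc
The 7 sequences have 7 different seeds. They come from hairpins on chromosomes 1 (miR-30a), X (miR-322), 16 (miR-125b-2), 4 (miR-200a), 6 (miR-182) and 9 (miR-425), and miR-199a-5p has copies on chromosomes 1 and 9. miR-199a-5p, a strand of a miRNA abundant in stellate cells and fibroblasts, had 113, 101 and 102 CPM in dmPGE2+APAP livers, 131, 129 and 99.2 CPM in APAP livers, and 143, 104 and 170 CPM in Control livers. As with miR-145a-5p, its highest library was Control replicate 3. It was chosen for a high r with miR-145a-5p over these libraries, so a shared highest library is no separate result. The others chosen in this way, miR-182-5p, miR-425-5p, miR-151-5p and miR-320-3p, were also highest there (79.5, 90.8, 28.2 and 45.9 CPM).

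Other miRNAs of mesenchymal cells gave no call either. The list named 12 miRNAs, 11 of them present in the table and 10 tested. In each of the 3 comparisons 0 of 10 were called by edgeR, DESeq2 or limma-voom, and 0 of 10 had an unadjusted p under 0.05 in edgeR. In APAP against Control, dmPGE2+APAP against APAP and dmPGE2+APAP against Control, edgeR called 0.833%, 0.278% and 0.278% of all miRNAs, and 9.72%, 6.39% and 10.6% had an unadjusted p under 0.05. A count of 0 of 10 is near these shares and says little about the list. Their median log2 change was 0.01 in APAP against Control, 0.13 in dmPGE2+APAP against APAP and 0.20 in dmPGE2+APAP against Control, beside -0.05, 0.00 and -0.03 for all miRNAs. The list includes miR-199a and miR-214, whose shared host transcript is active in stellate cells and fibroblasts, and miR-99a, miR-100 and miR-125b, which come from clusters with let-7 miRNAs.

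Among these, miR-199a-3p averaged 316 ± 59.8 CPM in dmPGE2+APAP, 294 ± 82.9 CPM in APAP and 273 ± 56.2 CPM in Control (SD, n = 3 each). The 8 rows of the list that averaged at least 10 CPM did not share 1 pattern with the cluster. Their r with miR-143-3p was 0.75 for miR-497a-5p, 0.70 for miR-199a-3p, 0.64 for miR-214-3p, 0.21 for miR-195a-5p, 0.03 for miR-199a-5p, 0.01 for miR-99a-5p, -0.22 for miR-100-5p and -0.54 for miR-125b-5p, which ranked from 10 to 175 of 202. With miR-145a-5p the r was 0.80 for miR-199a-5p, 0.49 for miR-195a-5p and 0.23 for miR-214-3p, and the other 5 rows lay between -0.33 for miR-125b-5p and 0.09 for miR-199a-3p. miR-99a-5p, the most abundant row of the list, averaged 5310 ± 436, 4761 ± 229 and 5080 ± 376 CPM in dmPGE2+APAP, APAP and Control. miR-100-5p had 1655 ± 48.1, 1454 ± 35.1 and 1364 ± 628 CPM in the same groups, with 723 CPM in Control replicate 1 and 1978 CPM in Control replicate 3. Summed over the list, levels ran from 7314 to 8315 CPM in dmPGE2+APAP, from 6895 to 7253 CPM in APAP and from 6145 to 8108 CPM in Control. Most of this sum is miR-99a-5p and miR-100-5p (means of 5050.5 and 1491 CPM over all libraries). It says little about rows such as miR-199a-3p (294 CPM) and miR-214-3p (24.6 CPM).

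Markers of other cell types were read beside these values. The hepatocyte list, led by miR-122-5p, summed to between 353040 and 392640 CPM in dmPGE2+APAP, 328500 and 388160 CPM in APAP, and 375350 and 524820 CPM in Control. The endothelial miR-126a strands summed to between 8788 and 10174 CPM in dmPGE2+APAP, 7990 and 9434 CPM in APAP, and 7437 and 9115 CPM in Control. Neither list had a called member in any comparison by edgeR, DESeq2 or limma-voom (0 of 5 and 0 of 2), and 1 of these values, that of miR-148a-3p in dmPGE2+APAP against Control, had an unadjusted p under 0.05 in edgeR. Over all miRNAs 10.6% had such a p in that comparison. The shares that edgeR called were 0.833% in APAP against Control and 0.278% in each other comparison, so counts of 0 of 5 and 0 of 2 are near them.

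The striated muscle list, of which 4 of 7 rows were tested and 0 were called by edgeR, DESeq2 or limma-voom, differed more within groups. Its miR-499-5p, 1 of 4 rows, had an unadjusted p under 0.05 in edgeR in both comparisons with Control. Over all miRNAs such a p was found for 9.72% in APAP against Control and 10.6% in dmPGE2+APAP against Control. The log2 changes of miR-499-5p were -2.44 and -3.28 in these comparisons. It had 101, 42.3 and 12.7 CPM in Control, 3.89, 13.4 and 11.5 CPM in APAP, and 2.54, 1.70 and 10.2 CPM in dmPGE2+APAP. Control replicate 3 thus lay below APAP replicate 2. The list summed to between 342 and 722 CPM in dmPGE2+APAP, 315 and 905 CPM in APAP, and 483 and 2704 CPM in Control. Its leading row miR-1a-3p had 2544, 1010 and 452 CPM in Control replicates 1, 2 and 3, so that replicate 1 was highest, as it was for miR-143-3p, while miR-145a-5p was highest in replicate 3. The match with miR-143-3p did not hold in the other groups. There miR-1a-3p was highest in APAP replicate 2 and dmPGE2+APAP replicate 3, and miR-143-3p in APAP replicate 3 and dmPGE2+APAP replicate 2.

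The red-cell list summed to between 439 and 477 CPM in dmPGE2+APAP, 881 and 1712 CPM in APAP, and 505 and 667 CPM in Control. Its main row miR-451a, an erythroid miRNA, had 291, 279 and 314 CPM in dmPGE2+APAP, 1172, 639 and 590 CPM in APAP, and 402, 446 and 379 CPM in Control, so the APAP libraries lay above all others. It was the 1 of 6 rows that edgeR called in dmPGE2+APAP against APAP, where 0.278% of all miRNAs were called. There it was lower, with a log2 change of -1.44 (SE 0.25, adjusted p 0.00993). That call was lost without APAP replicate 1 (-1.05, adjusted p 0.0620), without dmPGE2+APAP replicate 2 (adjusted p 0.0568), with only these groups fitted in edgeR (0.0964) and with deposited TPM in limma (0.0807). DESeq2 called 5 of 6 rows lower in that comparison and 4 of 6 higher in APAP against Control, and limma-voom called 1 and 0. The rows of miR-486a-5p and miR-486b-3p count nearly the same reads. Group means in dmPGE2+APAP, APAP and Control were 49.6, 109 and 48.7 CPM for miR-486a-3p and 48.1, 108 and 47.9 CPM for miR-486a-5p. The counts of rows in this list therefore hold 1 signal more than once. In dmPGE2+APAP against APAP and in APAP against Control, 6 of 6 rows had an unadjusted p under 0.05 in edgeR, against 6.39% and 9.72% of all miRNAs. The median log2 change was -1.23 in dmPGE2+APAP against APAP and 1.17 in APAP against Control. In dmPGE2+APAP against Control 0 of 6 rows had such a p, against 10.6% of all.

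For the epithelial list the sums were 481 to 1009, 532 to 672 and 479 to 882 CPM in dmPGE2+APAP, APAP and Control, and for the myeloid list 153 to 238, 177 to 319 and 124 to 233 CPM, with a DESeq2 call of miR-223-3p as higher in APAP against Control (log2 1.05, adjusted p 0.0409). For the lymphoid list they were 26.0 to 30.9, 20.1 to 33.1 and 13.9 to 33.1 CPM. These 3 lists had no other call by edgeR, DESeq2 or limma-voom. In APAP against Control 4 of 4 myeloid rows lay above 0 (median log2 0.59), and 2 of 4 had an unadjusted p under 0.05 in edgeR. In dmPGE2+APAP against APAP 4 of 4 lay below 0 (median -0.75), and 1 of 4 had such a p. Over all miRNAs the shares were 9.72% and 6.39%. In dmPGE2+APAP against Control 3 of 4 lay above 0, and 0 of 4 had such a p, against 10.6% of all. The part of these cell types in the values of the cluster was not tested, and no row of the lists found in the table was at 0 in every library of a group.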

How the data were processed

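The authors deposited raw read counts of 946 mature miRNAs, whole numbers with 1 column per library, per the file headers. Mapping used Bowtie and the mm10 build, per the submitters' processing notes. The sources used here do not state versions, the counting tool, the annotation or strand handling. TPM columns deposited beside the counts, so named in the header, hold counts over the library total with no length term, and were used in 1 alternative with a pseudocount of 1. Columns of both APAP-treated groups match the sample titles, and the columns headed BC were taken as Control because it is the one group no other column names. No label defines that prefix, so each comparison with Control rests on this reading. No value column was left unused (0).

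Counts were tested with edgeR 4.0.16 in R 4.3.3: TMM scaling, filterByExpr (minimum count 10, minimum total 15), 1 robust quasi-likelihood fit over 9 libraries, and Benjamini-Hochberg adjustment over 360 miRNAs at 0.05. Intervals of 95% use a standard error from the F statistic. Ratios used a pseudocount of 0.5 reads. The filter passed all 4 members. The test was also run on simulated counts, and the outcome of that run is not reported here. Rows with at least 100 reads in total were taken to share reads where they differed in every library by at most 5% or at most 2 reads. The r of their log2 counts also had to exceed 0.99. The main fit had no term for the replicate number. Of 9 same-numbered pairs of libraries from different groups, 2 had deviations correlated above 0.1 (range -0.35 to 0.50). Of 18 differently numbered pairs it was 8 (range -0.57 to 0.39). Such correlations alone cannot show whether libraries were handled in numbered sets. Alternatives were other scalings and filters, DESeq2 1.42.0, limma 3.58.1, thinning, the block and leaving out each library. Named miRNAs are the members, the 5 closest in pattern to each main strand, the mesenchymal list and up to 2 rows per other marker list, the most abundant. Outside that rule, miR-486a-5p, miR-486b-3p and miR-499-5p were named after their values were seen. Members and lists were chosen with earlier results of these data known.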

Additional observations from a re-analysis of the deposited data

How the results depend on the processing

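In all 21 alternatives of each comparison 0 of 4 members were called, and the lowest adjusted p of any member was 0.329 (miR-145a-5p in APAP against Control, without Control replicate 2). The log2 change of miR-145a-5p kept its sign in all 21, from -0.82 to -0.30 in APAP against Control and from -0.62 to -0.14 in dmPGE2+APAP against Control. Signs turned in the following cases. For miR-143-3p in APAP against Control, library totals gave 0.033 and deposited TPM 0.050. In dmPGE2+APAP against Control it had 0.016 with RLE factors, 0.21 with library totals, 0.0066 at a mean of at least 10 CPM, 0.016 with DESeq2, 0.23 with deposited TPM and 0.0090 with only these groups fitted. For miR-143-5p in that comparison, upper-quartile scaling gave -0.026, no filter -0.068 and limma-voom -0.0033, and thinning gave 0.21 in dmPGE2+APAP against APAP. Thinning also turned the dmPGE2+APAP minus APAP differences in log2 ratio, to -0.059 for miR-143-3p over miR-143-5p and -0.078 for miR-145a-5p over miR-145a-3p, and library totals turned the r of miR-143-5p with miR-145a-5p to 0.021. The cause was not tested.

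Leaving out 1 library gave 0.02 to 0.28, 0.03 to 0.26 and 0.15 to 0.44 for miR-145a-3p in APAP against Control, dmPGE2+APAP against APAP and dmPGE2+APAP against Control. It gave 0.07 to 0.42 and 0.03 to 0.36 for miR-143-3p and miR-145a-5p in dmPGE2+APAP against APAP, -0.39 to -0.02 for miR-143-3p and -0.15 to 0.47 for miR-143-5p in APAP against Control, -0.31 to 0.23 for miR-143-5p in dmPGE2+APAP against APAP, and -0.13 to 0.22 and -0.15 to 0.39 for miR-143-3p and miR-143-5p in dmPGE2+APAP against Control. The log2 ratio of miR-143-3p over miR-145a-5p ran from -0.0039 to 0.57 in APAP minus Control and from -0.21 to 0.39 in dmPGE2+APAP minus APAP. That of miR-143-3p over miR-143-5p ran from -0.31 to 0.14 in dmPGE2+APAP minus Control, and that of miR-145a-5p over miR-145a-3p from -0.22 to 0.26 in dmPGE2+APAP minus APAP. With the replicate number as a block (replicate block), miR-145a-5p had -0.61 in APAP against Control, with edgeR's adjusted p at 0.617, and no call of a member changed. Over all miRNAs edgeR called 3 in APAP against Control, 1 in dmPGE2+APAP against APAP and 1 in dmPGE2+APAP against Control, and other settings are given in that order. DESeq2 called 13, 8 and 2, no filter gave 9, 9 and 2, library totals 8, 1 and 2, the block 0, 2 and 1, and a mean of at least 10 CPM 0, 1 and 0. With 3 libraries a group and 19 to 100 reads of miR-143-5p per library, its SE in APAP against Control was 0.34, beside 0.24 for miR-143-3p, and the part of depth and of spread between libraries in these errors was not tested.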
